A study of Mus musculus with 13 samples.

Results

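The matrix metalloproteinase genes Mmp2, Mmp3, Mmp9, Mmp13, Mmp14 and Mmp19 and the tissue inhibitor of metalloproteinase genes Timp1, Timp2, Timp3 and Timp4 were followed in atherosclerotic mouse aorta. They were taken from the table of read counts by gene symbol, as 10 of its 56953 genes, and all 10 were among the 18055 genes that passed the low-count filter and were tested. RNA had been extracted from whole aortas of ApoE-/- mice, which lack apolipoprotein E and develop plaques. All mice received a Western diet for 16 weeks from an age of 6 weeks, and drugs were given in the diet. The groups were auranofin at 3 mg/kg/day (3 libraries), atorvastatin at 10 mg/kg/day (3 libraries), both drugs together (combination, 2 libraries) and the Western diet alone (5 libraries). Atorvastatin, a statin, blocks cholesterol synthesis, and auranofin, a gold compound used against rheumatoid arthritis, blocks thioredoxin reductase. The study asked whether auranofin affects the progression of atherosclerosis. No chow-fed or wild-type aorta was analysed here, so each drug was set against diseased tissue only, and the labels do not tie a library to a named mouse. The p-values therefore measure only the spread between these samples.

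Matrix metalloproteinases (MMPs) are zinc-dependent enzymes that cut collagens, elastin, proteoglycans and basement membrane. Most are secreted as inactive proenzymes and need a cut to become active. Tissue inhibitors of metalloproteinases (TIMPs) bind the active site and block it. MMP14 sits in the cell membrane and, with TIMP2 as an adaptor, activates MMP2. In plaques, macrophages and smooth muscle cells are known sources of these enzymes, and matrix loss in the fibrous cap is linked to plaque rupture in humans. Transcript levels do not show how much enzyme is active.

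Total counts per library ran from 19703683 to 26079566 (median 23550042). Mitochondrial transcripts took 9.36% to 38.75% of counts. Auranofin 2, Western diet 2 and Western diet 5 stood apart from the other libraries with the lowest scaling factors of the trimmed mean of M values (TMM), at 0.629, 0.639 and 0.801. Their mitochondrial shares were 38.75%, 26.88% and 24.23%, the last close to the 23.98% of auranofin 1. The 7 contractile smooth muscle markers summed to 6005 to 27330 CPM, counts scaled to library size, and none was at 0 in any library, so the muscle of the vessel wall was present in each. The 6 of 7 heart muscle markers that passed the low-count filter (all but Nppa) summed to 1352 CPM in combination 2, 488.6 CPM in Western diet 4 and 349.3 CPM in Western diet 1, and to between 10.46 and 28.7 CPM elsewhere.

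Collagenase and stromelysin genes lie side by side on mouse chromosome 9, in the order Mmp13, Mmp12, Mmp1b, Mmp3, Mmp1a, Mmp10, Mmp8, Mmp27, Mmp20 and Mmp7, with no other protein-coding gene between the first and the last in the GENCODE M21 annotation. The sequences below are the 120 bases upstream of the annotated start of Mmp3, Mmp13 and Mmp12 from this cluster and of Timp1, since these genes shared their high and low libraries with macrophage transcripts (described further on). They are from RefSeq, build GRCm38.p6, all on the plus strand, at chr9:7445702-7445821 for Mmp3, chr9:7272394-7272513 for Mmp13, chr9:7347254-7347373 for the second annotated start of Mmp12 and chrX:20870046-20870165 for Timp1. Capitals mark the motif TGANTCA, the core recognised by AP-1, the Fos and Jun dimers known to drive collagenase and stromelysin promoters in several species. Of the annotated starts of these cluster genes, only those that hold the motif are printed, which leaves out the first start of Mmp12.
Mmp3: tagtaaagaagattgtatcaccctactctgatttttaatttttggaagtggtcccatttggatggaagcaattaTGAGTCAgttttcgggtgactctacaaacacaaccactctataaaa
Mmp13: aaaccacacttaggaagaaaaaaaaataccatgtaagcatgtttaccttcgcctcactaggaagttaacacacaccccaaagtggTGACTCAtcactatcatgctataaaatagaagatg
Mmp12: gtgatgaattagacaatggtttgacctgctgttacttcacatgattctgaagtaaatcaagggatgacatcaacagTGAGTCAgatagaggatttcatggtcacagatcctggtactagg
Timp1: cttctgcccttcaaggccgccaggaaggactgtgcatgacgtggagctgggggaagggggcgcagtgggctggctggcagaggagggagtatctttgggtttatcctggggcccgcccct

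Both strands were searched over 250 bases upstream, and the motif reads the same on either strand. It began at base -46 in Mmp3, -35 in Mmp13 and -44 in Mmp12, counted from the annotated start. It was not found in this window of Mmp14, Timp1, Timp2, Timp3, Timp4, Mmp8 or the first start of Mmp12. Of 32851 mouse promoters in the same table, 2217 (6.75%) held it. The table matched 7 of the 10 genes; Mmp2, Mmp9 and Mmp19 are named only. A match is a run of letters and not a bound site, and its absence from this window says nothing about the factor.

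Per kilobase of exon (lengths from GENCODE M21, so approximate for counts made on another annotation), Timp2, Mmp3 and Timp1 had the highest levels. The median over 13 libraries was 211.4 CPM per kb for Timp2, 149.8 for Mmp3, which encodes stromelysin 1, and 115.5 for Timp1. It was 33.04 CPM per kb for Timp3, 25.81 for Mmp2, 10.04 for Mmp14, 5.19 for Mmp19, 4.07 for Mmp13, 3.06 for Timp4 and 0.784 for Mmp9. The ranges of neighbours in this order overlapped across libraries in every case, for example 164.2 to 280.8 CPM per kb for Timp2 against 83.06 to 226.6 for Mmp3. Mmp12, the macrophage elastase, was measured beside them at a median of 38.23 CPM per kb, and Mmp8, the neutrophil collagenase, at 0.891.

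The 10 genes differed widely in how much they varied between aortas. Mmp13 spanned 56.8-fold between its lowest and highest library, Timp1 19.4-fold and Timp3 18.9-fold. Timp2 spanned 1.71-fold. The SD of log2 CPM over 13 libraries stood at percentile 99 of all tested genes for Mmp13, 97 for Timp3, 95 for Timp1, 88.1 for Timp4 and 87.1 for Mmp19, and at 13.8 for Timp2. Mmp2 (62), Mmp9 (51.6), Mmp14 (51.5) and Mmp3 (49.6) lay near the middle. Much of the spread lay among the 5 aortas on the Western diet alone, which held the lowest value of Mmp2, Mmp3, Mmp13, Mmp19, Timp1 and Timp3 and the highest value of Mmp2, Mmp3, Mmp19, Timp1 and Timp4.

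**Figure D1:**
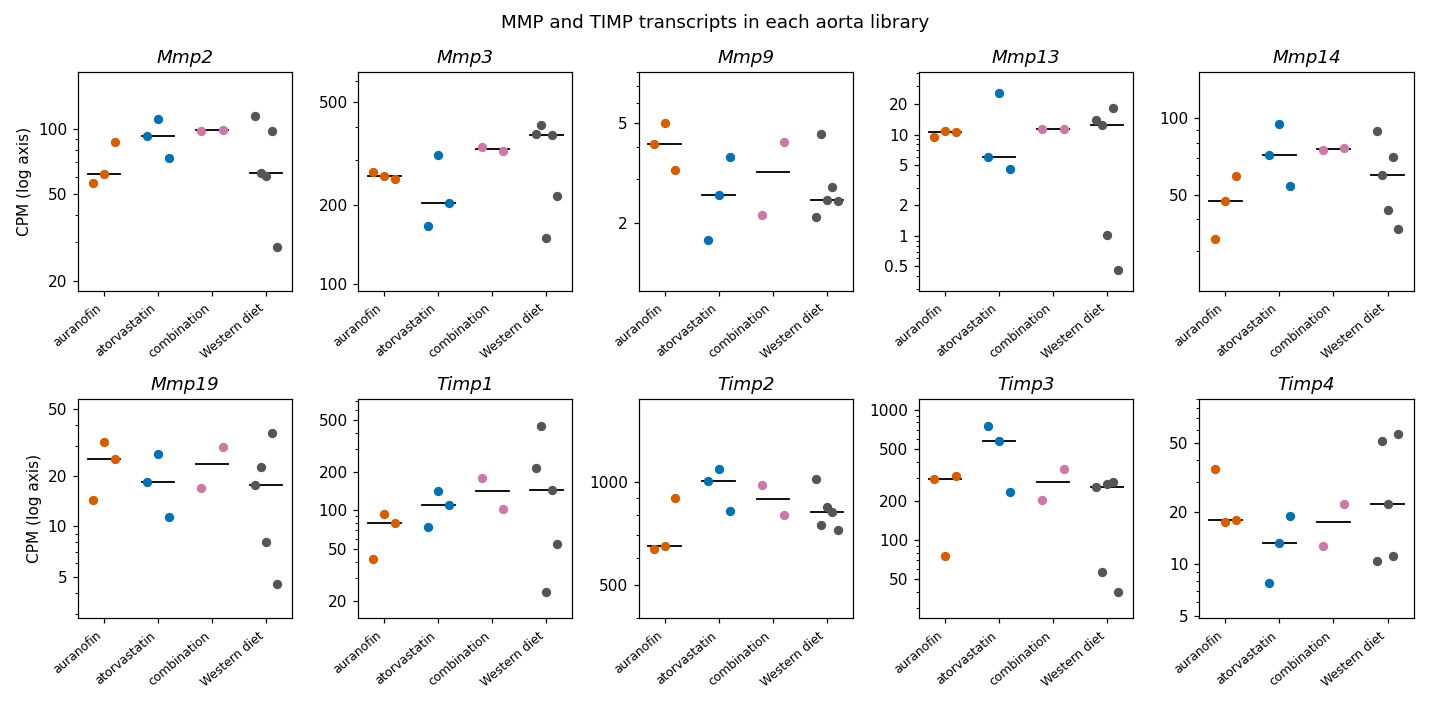
CPM of the 10 genes in each library on log axes, with 1 point per library, a bar at the group median, and the groups in the order auranofin (3), atorvastatin (3), combination (2) and Western diet (5). No gene separates a drug group from the Western diet group, and Mmp13 ranges from 0.456 to 18.3 CPM among the Western diet libraries alone.

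No gene of the 10 passed a Benjamini-Hochberg adjusted p of 0.05 in edgeR's quasi-likelihood test in any of 7 comparisons, and the share of all 18055 tested genes that passed was 0% in each. Beside this, an unadjusted p under 0.05 was reached by 0 of the 10 genes for auranofin, 1 for atorvastatin (Timp3, higher) and 0 for the combination, each against the Western diet, where 6.5%, 14.7% (4.19% higher) and 1.47% of all genes reached it. It was reached by 0 of 10 for auranofin against atorvastatin (4.4% of all genes), auranofin given or not (2.69%), atorvastatin given or not (7.08%) and the interaction of both drugs (3.1%). DESeq2 and limma called none of the 10 at an adjusted p under 0.05 either. Groups overlapped for every gene of the 10 in the pairs of groups compared in this way. There the share of all genes without overlap was 2.77% for auranofin and 5.7% for atorvastatin against the Western diet, 3.29% for the combination and 13.5% for auranofin against atorvastatin. The combination was not compared in this way with either drug alone. Some of the 10 genes, among them Mmp3 and Mmp14, did not overlap between the combination and auranofin, and the share of all genes was not computed there. The comparisons with the Western diet share its 5 libraries and are not independent of each other.

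The gelatinases cut denatured collagen and basement membrane collagen. Mmp2, gelatinase A, had 56.23, 62.18 and 86.99 CPM with auranofin, 93.09, 111.5 and 73.22 CPM with atorvastatin, 97.96 and 98.63 CPM with the combination, and 114.3, 62.52, 60.85, 97.64 and 28.6 CPM on the Western diet alone. Every treated library lay inside the range of the Western diet group. The log2 fold change was -0.088 (SE 0.353, adjusted p 0.944 by edgeR) for auranofin, 0.347 (SE 0.349, adjusted p 0.578) for atorvastatin and 0.433 (SE 0.395, adjusted p 0.997) for the combination.

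Mmp9, gelatinase B, is stored in neutrophil granules and made by activated macrophages. It had 4.13, 5.01 and 3.24 CPM with auranofin, 1.70, 2.58 and 3.65 CPM with atorvastatin, 2.15 and 4.20 CPM with the combination, and 2.11, 4.50, 2.45, 2.78 and 2.43 CPM on the Western diet alone. These rest on 45 to 99 counts per library. All 3 auranofin libraries lay above 4 of the 5 Western diet libraries, and auranofin 2 also above Western diet 2. Scaled by total counts alone, without the TMM factor, auranofin 1 (4.12 CPM) and auranofin 3 (3.69 CPM) lay above every Western diet library. Auranofin 2 (3.15 CPM) then lay below Western diet 4 (3.42 CPM). The fitted log2 fold change was 0.532 (SE 0.341, adjusted p 0.671 by edgeR) for auranofin, -0.106 (SE 0.347, adjusted p 0.877) for atorvastatin and 0.154 (SE 0.393, adjusted p 0.997) for the combination, and for auranofin given or not over all libraries it was 0.427 (SE 0.259, adjusted p 0.998). In an exact two-sided permutation test the auranofin difference had p = 0.107, the smallest among the 10 genes in that comparison, where 3 against 5 libraries allow 0.0179 at the least.

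The stromelysin and collagenase of the chromosome 9 cluster came next. Mmp3 cuts proteoglycans and fibronectin and activates other MMPs. It had 269.7, 259.5 and 252.9 CPM with auranofin, 166.2, 311.9 and 204.5 CPM with atorvastatin, 336.8 and 324.9 CPM with the combination, and 376.6, 408.1, 149.6, 374.4 and 218.3 CPM on the Western diet alone. The auranofin libraries were close together (SD 8.45 CPM around a mean of 260.7, n = 3), while the Western diet libraries spread around them (SD 114 CPM around 305.4, n = 5). On the log2 scale the fold change was -0.228 (SE 0.324, adjusted p 0.829 by edgeR) for auranofin, -0.424 (SE 0.326, adjusted p 0.468) for atorvastatin and 0.116 (SE 0.366, adjusted p 0.997) for the combination.

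Mmp13, the main interstitial collagenase of mice, had 9.55, 10.87 and 10.61 CPM with auranofin, 6.05, 25.93 and 4.53 CPM with atorvastatin, 11.32 and 11.29 CPM with the combination, and 13.81, 12.55, 1.02, 18.26 and 0.456 CPM on the Western diet alone. Western diet 3 and Western diet 5 stood far below all the others, and the lowest held 9 counts. edgeR fitted a log2 fold change of 0.163 (SE 0.883, adjusted p 0.961) for auranofin, 0.399 (SE 0.875, adjusted p 0.814) for atorvastatin and 0.291 (SE 1, adjusted p 0.997) for the combination. The interval of 2 SE for auranofin ran from -1.60 to 1.93, so neither a large increase nor a large decrease was detectable at this spread.

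The membrane enzyme Mmp14, which cuts fibrillar collagen at the cell surface and activates pro-MMP2, had 33.45, 47.23 and 59.36 CPM with auranofin, 71.88, 94.96 and 54.16 CPM with atorvastatin, 75.22 and 76.43 CPM with the combination, and 89.19, 59.81, 43.57, 70.1 and 36.77 CPM on the Western diet alone. Auranofin and atorvastatin libraries overlapped in 1 library only, auranofin 3, which lay above atorvastatin 3. Auranofin against atorvastatin gave -0.66 on the log2 scale (SE 0.331, adjusted p 0.826 by edgeR). Against the Western diet the log2 fold change of Mmp14 was -0.36 (SE 0.298, adjusted p 0.708) for auranofin, 0.298 (SE 0.292, adjusted p 0.568) for atorvastatin and 0.34 (SE 0.332, adjusted p 0.997) for the combination. Over all libraries, atorvastatin given or not gave 0.458 (SE 0.227, adjusted p 0.546).

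Mmp19, a secreted enzyme that cuts basement membrane proteins, had 14.27, 31.82 and 25.21 CPM with auranofin, 18.34, 26.92 and 11.29 CPM with atorvastatin, 16.9 and 29.76 CPM with the combination, and 17.54, 22.64, 8.09, 35.76 and 4.51 CPM on the Western diet alone. The lowest libraries were again Western diet 5 and Western diet 3. The log2 fold change was 0.421 (SE 0.538, adjusted p 0.805 by edgeR) for auranofin, 0.089 (SE 0.542, adjusted p 0.939) for atorvastatin and 0.396 (SE 0.611, adjusted p 0.997) for the combination. Mmp19 shares 789 exon bases with Tmem198b and 212 with an antisense gene on the opposite strand in GENCODE M21, and the libraries do not mark strand, so its counts may hold reads of these genes.

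Among the inhibitors, Timp1, an inducible secreted inhibitor of most soluble MMPs, had 42.42, 94.2 and 80.7 CPM with auranofin, 74.07, 141.1 and 110.2 CPM with atorvastatin, 179.8 and 102.6 CPM with the combination, and 214.5, 454.3, 23.38, 144.7 and 54.87 CPM on the Western diet alone. All 3 auranofin libraries lay below Western diet 1, 2 and 4 and, apart from auranofin 1 against Western diet 5, above the other Western diet libraries. The fitted log2 fold change was -1.30 (SE 0.728, adjusted p 0.671 by edgeR) for auranofin, -0.717 (SE 0.71, adjusted p 0.572) for atorvastatin and -0.337 (SE 0.807, adjusted p 0.997) for the combination. Without Western diet 2, the library with its highest level, the value of Timp1 was -0.595 for auranofin, -0.013 for atorvastatin and 0.368 for the combination. The interaction of both drugs was 1.68 (SE 1.11, adjusted p 0.791).

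Timp2, the constitutive inhibitor that also serves in the activation of pro-MMP2, had 639.8, 651.3 and 897.6 CPM with auranofin, 1006, 1094 and 823.6 CPM with atorvastatin, 979.8 and 801.8 CPM with the combination, and 1025, 749.2, 844.7, 818.1 and 726.9 CPM on the Western diet alone. It was the steadiest of the 10 genes, yet 2 of 3 auranofin libraries lay below every other library. On the log2 scale the fold change was -0.191 (SE 0.229, adjusted p 0.794 by edgeR) for auranofin, 0.227 (SE 0.227, adjusted p 0.576) for atorvastatin and 0.097 (SE 0.26, adjusted p 0.997) for the combination. Its interval of 2 SE was the narrowest of the 10 genes, from -0.649 to 0.268 for auranofin and from -0.226 to 0.68 for atorvastatin.

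Timp3 binds to the extracellular matrix and also inhibits ADAM proteases. It had 293.7, 75.62 and 308.5 CPM with auranofin, 753.7, 574.1 and 235.5 CPM with atorvastatin, 203.9 and 348.8 CPM with the combination, and 254.9, 56.33, 269.1, 280 and 39.96 CPM on the Western diet alone. Atorvastatin 1 and 2 were the highest of all libraries, while atorvastatin 3 lay inside the Western diet range. The 3 low values belong to auranofin 2, Western diet 2 and Western diet 5, the libraries with the lowest TMM factors. The log2 fold change for atorvastatin was 1.53 (SE 0.65, p 0.0349, adjusted p 0.34 by edgeR), with an exact permutation p of 0.143, and without those 3 libraries it was 0.987 (adjusted p 0.866). It was 0.328 (SE 0.658, adjusted p 0.889) for auranofin and 0.618 (SE 0.74, adjusted p 0.997) for the combination, where the value of Timp3 without the 3 libraries was 0.065. Atorvastatin given or not gave 1.08 (SE 0.525, adjusted p 0.546), and auranofin against atorvastatin gave -1.21 (SE 0.753, adjusted p 0.826).

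Timp4, an inhibitor known to be abundant in heart and fat, had 35.71, 17.59 and 18.06 CPM with auranofin, 7.71, 13.14 and 18.85 CPM with atorvastatin, 12.72 and 22.11 CPM with the combination, and 10.34, 51.71, 22.11, 11.14 and 56.49 CPM on the Western diet alone. The highest libraries were Western diet 5 and Western diet 2, followed by auranofin 1. The log2 fold change of Timp4 was -0.348 (SE 0.56, adjusted p 0.851 by edgeR) for auranofin, -1.20 (SE 0.58, adjusted p 0.34) for atorvastatin and -0.80 (SE 0.663, adjusted p 0.997) for the combination. Without auranofin 2, Western diet 2 and Western diet 5 it was 0.921 for auranofin and 0.283 for the combination, where the sign turned, and -0.118 for atorvastatin, where the sign was kept. With limma, which weights libraries by their quality, the values of Timp4 were 0.942, -0.122 and 0.292 in the same order.

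**Figure D2:**
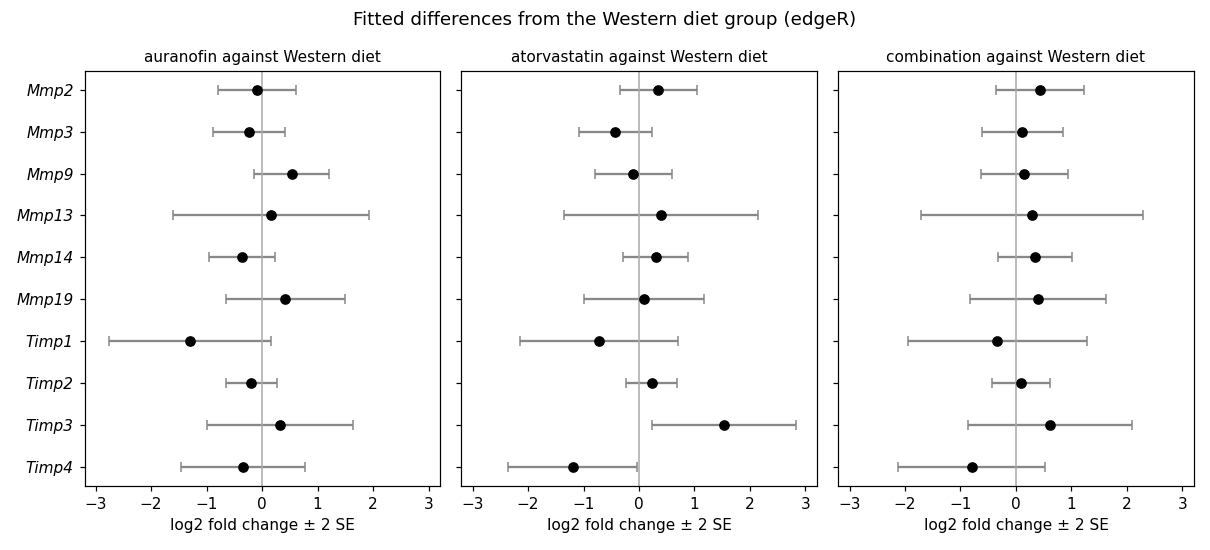
Log2 fold changes of the 10 genes (points) with bars of 2 SE either side, for auranofin, atorvastatin and the combination against the Western diet, from edgeR. For atorvastatin the bars of Timp3 (0.234 to 2.83) and Timp4 (-2.36 to -0.034) leave 0 outside, but neither gene passed after adjustment over all genes.

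As a group, 4 of 10 genes had a positive and 6 a negative log2 fold change with auranofin, with a median of -0.14 against -0.041 over all tested genes. With atorvastatin 6 were positive and 4 negative (median 0.158 against -0.010), and with the combination 8 were positive and 2 negative (median 0.223 against -0.008). These are counts of fitted signs, not of changes.

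Across the 13 libraries several proteases and inhibitors were high and low in the same aortas. The correlations are of log2 CPM over the same 13 libraries, which share their depth and tissue makeup with every gene, and they are given as descriptions. Mmp2 and Mmp14, the enzyme and its activator, had a Pearson r of 0.876 (Spearman rho 0.967), and Mmp14 and Timp2 had 0.814 (rho 0.736). Mmp13 and Mmp19 had 0.904 (rho 0.703), which was 0.66 without the 2 libraries farthest from the median of Mmp13. Mmp3 and its inhibitor Timp1 had 0.804 (rho 0.83). Timp4 ran against several of the others, with r of -0.81 to Mmp2 (rho -0.72) and -0.724 to Timp3 (rho -0.434), and Mmp9 ran against Timp2 (r -0.745, rho -0.692).

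**Figure D3:**
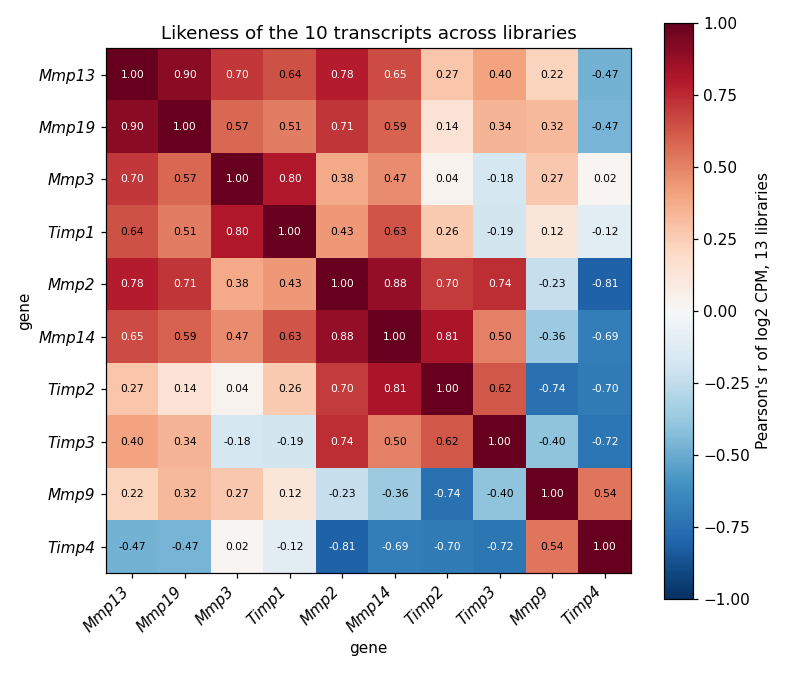
Pearson's r of log2 CPM between each pair of the 10 genes over 13 libraries, red for positive and blue for negative. The block of Mmp13, Mmp19, Mmp3 and Timp1 and the block of Mmp2, Mmp14 and Timp2 are red, while Timp4 is blue against Mmp2 (-0.81), Mmp14 (-0.691), Timp2 (-0.698) and Timp3 (-0.724). The gene order was set by hand, and the blocks are not separate. Mmp2 is also red against Mmp13 (0.782) and Mmp19 (0.715), above Mmp3 against Mmp19 (0.573) inside the first block.

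Macrophage transcripts moved with the first of these blocks. The 8 macrophage markers (Cd68, Adgre1, Csf1r, Cd14, Itgam, Lyz2, Fcgr1 and Mpeg1), all above 0 in every library, summed to 809.1 to 2904 CPM with auranofin, 617.3 to 2095 CPM with atorvastatin, 1858 and 1889 CPM with the combination, and 288.4 to 4089 CPM on the Western diet alone. Western diet 3 (288.4 CPM) and Western diet 5 (410.2 CPM) were the lowest, as they were for Mmp13 and Mmp19. The r with the mean log2 level of these markers was 0.858 for Mmp19 (rho 0.78), 0.856 for Mmp13 (rho 0.775), 0.835 for Timp1 (rho 0.753) and 0.826 for Mmp3 (rho 0.758). Without the 2 libraries farthest from each gene's own median it was 0.713 for Mmp19, 0.675 for Mmp13, 0.714 for Timp1 and 0.778 for Mmp3. It was 0.587 for Mmp2, 0.635 for Mmp14 and 0.311 for Mmp9, and between -0.281 and 0.148 for Timp2, Timp3 and Timp4. In whole aorta, fewer cells of a type and less RNA per cell cannot be told apart.

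**Figure D4:**
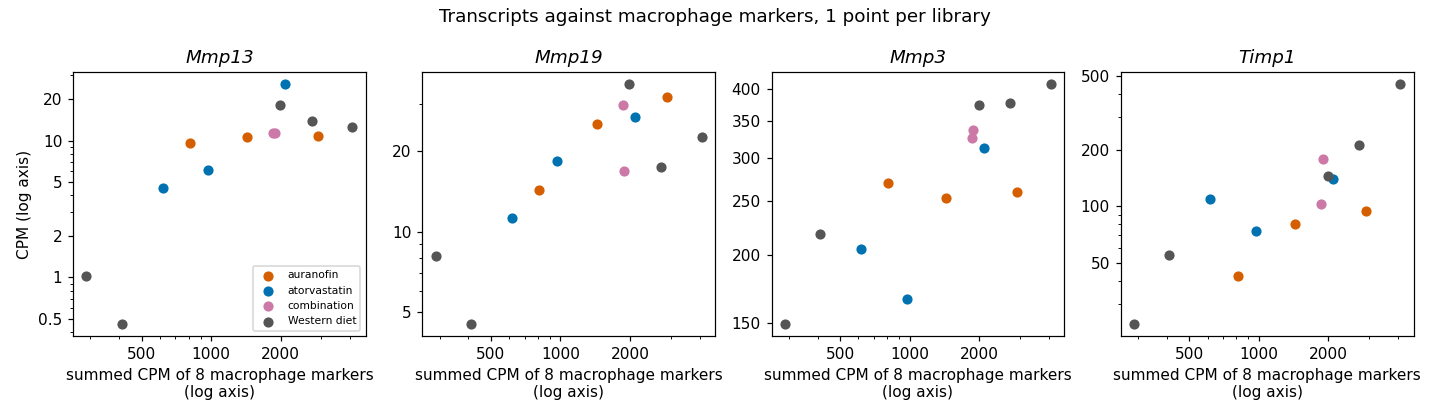
CPM of Mmp13, Mmp19, Mmp3 and Timp1 against the summed CPM of 8 macrophage markers in each of 13 libraries, both on log axes, coloured by group. All 4 genes tend to be higher where the markers are higher, and the 2 Western diet libraries at 288.4 and 410.2 CPM of markers hold the lowest Mmp13 values, 1.02 and 0.456 CPM.

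The Western diet group itself was the widest in macrophage transcripts, and its comparison with the drugs was repeated with the macrophage level as a covariate. The auranofin value of Timp1 was then -0.999 (SE 0.368, adjusted p 0.598 by edgeR), and its atorvastatin value was -0.0091 (SE 0.361, adjusted p 0.989). The value of Mmp13 was 0.992 for auranofin (SE 0.486, adjusted p 0.598) and 1.08 for atorvastatin (SE 0.476, adjusted p 0.323). No gene of the 10 passed with this covariate. In the fit without the covariate, leaving out atorvastatin 2, where Mmp13 had 25.93 CPM, turned its atorvastatin value to -0.794. Mmp12, the neighbour of Mmp13 and an elastase made by macrophages, had 123.6, 431.5 and 271.7 CPM with auranofin, 155.6, 348.4 and 66.8 CPM with atorvastatin, 293.4 and 333.4 CPM with the combination, and 400, 276.7, 26.07, 446 and 11.46 CPM on the Western diet alone. Its low libraries were those of Mmp13, and its log2 fold change was 0.248 (SE 0.922, adjusted p 0.941) for auranofin, -0.287 (SE 0.937, adjusted p 0.877) for atorvastatin and 0.433 (SE 1.042, adjusted p 0.997) for the combination.

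Mmp2, Mmp14, Timp2 and Timp3 moved with markers of cartilage-like cells, which advanced plaques of ApoE-/- mice are known to contain. The 7 markers (Acan, Col2a1, Sox9, Comp, Chad, Col10a1 and Ibsp) summed to 40.64 to 291.9 CPM with auranofin, 65.03 to 1484 CPM with atorvastatin, 188.7 and 508.5 CPM with the combination, and 46.72 to 925.2 CPM on the Western diet alone; Col2a1 was at 0 in 1 library. The r with their mean log2 level was 0.804 for Mmp2 (rho 0.852), 0.808 for Mmp14 (rho 0.791), 0.76 for Timp2 (rho 0.747) and 0.762 for Timp3 (rho 0.808). For Mmp13 it was 0.58 (rho 0.527). The part of these markers in the drug comparisons was not tested.

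The mitochondrial share of the libraries moved with Timp2, Timp3, Timp4, Mmp2, Mmp14 and Mmp9. It was 16.04% to 38.75% with auranofin, 12.21% to 21.06% with atorvastatin, 11.33% and 19.1% with the combination, and 9.36% to 26.88% on the Western diet alone. Its r was -0.834 with Timp2 (rho -0.824), -0.662 with Timp3 (rho -0.495), -0.639 with Mmp14 (rho -0.72), -0.627 with Mmp2 (rho -0.791), 0.602 with Timp4 (rho 0.797) and 0.773 with Mmp9 (rho 0.742). It was -0.135 with Timp1, -0.106 with Mmp3, -0.204 with Mmp13 and -0.04 with Mmp19. Timp3 had an r of 0.825 with the log2 TMM factor (rho 0.549) and of -0.855 with 7 markers of adventitial fibroblasts (rho -0.725). These markers, none at 0 in any library, summed to 1016 to 1931 CPM with auranofin, 632.8 to 1038 CPM with atorvastatin, 931.9 and 939.1 CPM with the combination, and 979.4 to 1917 CPM on the Western diet alone. Leaving out the 3 libraries above and limma's library weights both moved the values of Timp3 and Timp4; the mitochondrial share itself was not tested as a covariate.

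**Figure D5:**
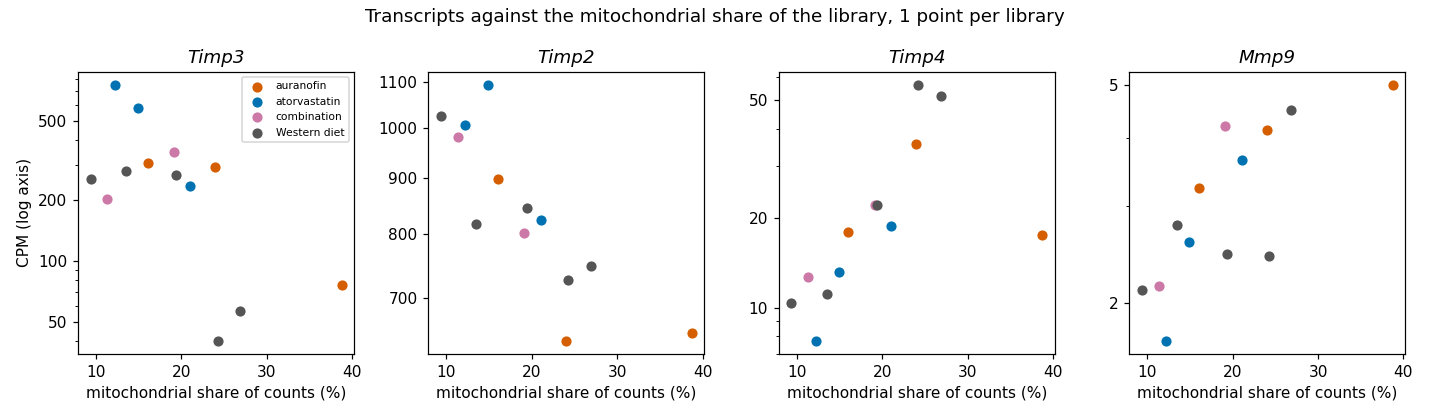
CPM of Timp3, Timp2, Timp4 and Mmp9 (log axis) against the mitochondrial share of counts in percent, 1 point for each of 13 libraries, coloured by group. Timp2 is lower and Mmp9 higher at high shares, and auranofin 2, at 38.75%, has the highest Mmp9 value, 5.01 CPM. The CPM values are after TMM scaling, and scaled by total counts alone auranofin 2 does not hold the highest Mmp9 value.

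Mmp9 also moved with neutrophil markers, at an r of 0.853 (rho 0.841). Of 7 markers, the 5 that passed the low-count filter (S100a8, S100a9, Csf3r, Cxcr2 and Retnlg) made up this score, and they summed to 13.78 to 96.83 CPM with auranofin, 6.43 to 18.05 CPM with atorvastatin, 15.46 and 23.19 CPM with the combination, and 2.94 to 49.24 CPM on the Western diet alone. Auranofin 2 and Western diet 2 held the highest sums and, after TMM scaling, the highest Mmp9 values. Of the 2 markers left out, Ly6g was at 0 in 6 libraries and Ngp in 7. Scaled by total counts alone, Mmp9 was at 3.15 CPM in auranofin 2 and 2.88 CPM in Western diet 2, below the 4.52 CPM of combination 2 and the 4.12 CPM of auranofin 1. The part of the neutrophil markers in the Mmp9 difference was not tested. Timp4 had an r of 0.226 with 7 adipocyte markers (rho 0.225) and of -0.372 with the 6 of 7 heart muscle markers that passed the filter (rho -0.516), and combination 2, with the highest sum of both lists, had 22.11 CPM of Timp4. Without the 2 libraries farthest from its own median, the r of Timp4 was 0.571 with adipocyte and -0.226 with heart muscle markers.

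Each of the Timp1, Timp3 and Timp4 genes lies inside a synapsin gene on the opposite strand (Syn1, Syn3 and Syn2), and the libraries do not mark strand. In GENCODE M21, exons overlap over 1733 bases for Timp3 and Syn3 and 90 bases for Timp4 and Syn2, and not at all for Timp1. The synapsins were low, with Syn1 at 1.10 to 9.38 CPM, Syn2 at 0.541 to 14.13 CPM and Syn3 at 0.329 to 1.83 CPM over 13 libraries. Syn2 had its highest value in atorvastatin 2, where Timp4 was at 13.14 CPM.

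The genes whose log2 CPM most resembled each member over the 13 libraries were ranked among 12932 genes. For Mmp13 they were Pira1, Itgb2 and Adam8 (r 0.973, 0.972 and 0.972), of which Itgb2 encodes the leukocyte integrin beta 2 chain and Adam8 a leukocyte metalloprotease. For Mmp19 they were Rgl1 (0.983), Mctp1 (0.973) and Ptpre (0.972), and for Timp1 Rell1 (0.942), Cdt1 (0.934) and Ch25h (0.931), which encodes cholesterol 25-hydroxylase. For Mmp3 they were Smim3 (0.971), Gdpd1 (0.923) and Baiap2 (0.915). Mmp2 was closest to C1rb (0.961), C1ra (0.953) and Hs6st1 (0.952), the first pair being complement proteases. Timp2 was closest to Ube2z (0.94), Col1a2 (0.932), a chain of type I collagen, and Arsb (0.93), and Mmp14 to Cx3cl1 (0.965) and Pkp1 (0.95).

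For the remaining genes the closest were Cherp (0.988), Arcn1 (0.984) and Cpeb4 (0.983) for Timp3, Mrps31 (0.909), Chchd3 (0.905) and Slc25a17 (0.901) for Mmp9, and Mrps35 (0.918), Gstk1 (0.89) and Cd59b (0.886) for Timp4. Mrps31 and Mrps35 encode subunits of the mitochondrial ribosome.

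Other genes of the pathway gave no call. Of 17 further MMP genes 10 were tested, and 4 were positive and 6 negative for auranofin against the Western diet (median log2 fold change -0.22), 6 and 4 for atorvastatin (0.126). For the 16 matrix proteins these enzymes cut, all tested, 0 were positive and 16 negative with auranofin (median -0.434 against -0.041 over all genes). With atorvastatin 15 were positive and 1 negative (0.398 against -0.010). These genes share their libraries, so the signs are not independent of each other. Auranofin 2 had the lowest TMM factor (0.629) of all libraries. It was also lowest for Col1a2, Col3a1, Col4a1, Col4a2, Col5a1, Fn1, Fbn1, Bgn, Vcan, Acan, Hspg2 and Lamc1. For Col1a1, Eln, Dcn and Lum another library was lowest. The part of auranofin 2 in the auranofin values of these genes was not tested. No substrate gene passed in either comparison, and 1 of 16 reached an unadjusted p under 0.05 in each, where 6.5% and 14.7% of all genes did. In auranofin against atorvastatin 7 of 16 reached it, all lower (4.4% of all genes), and in atorvastatin given or not 7 of 16, all higher (7.08% of all genes), and none passed after adjustment. Over all libraries, atorvastatin given or not gave 0.819 for Fn1, fibronectin (SE 0.303, adjusted p 0.546), and auranofin given or not gave -0.556 for Col1a1, a type I collagen chain (SE 0.193, adjusted p 0.998). Mmp15, a membrane MMP like Mmp14, had 0.666 for atorvastatin given or not (SE 0.226, adjusted p 0.546).

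In the list of activation and clearance genes, 15 of 17 were tested, and 3 were positive and 12 negative with auranofin (median -0.157), 10 and 5 with atorvastatin (0.226). Furin, the convertase that activates pro-MMP14, had 0.452 for atorvastatin given or not (SE 0.147, adjusted p 0.546), and Lrp1, a receptor that clears MMPs and TIMPs, had -0.38 for auranofin given or not (adjusted p 0.998). Of 17 ADAM and ADAMTS proteases, which TIMPs such as Timp3 also inhibit, 7 were positive and 10 negative with auranofin (median -0.059), and 13 and 4 with atorvastatin (0.31). Adam12 had 0.822 for auranofin given or not (SE 0.349, adjusted p 0.998). Of 16 cytokines and transcription factors known to induce MMPs 15 were tested, with 5 positive and 10 negative for auranofin (median -0.312) and 8 and 7 for atorvastatin (0.094). Il1b, interleukin 1 beta, had -1.11 for atorvastatin given or not (SE 0.879, adjusted p 0.587 by edgeR). Rela, a subunit of NF-kB, had -0.366 for auranofin given or not (SE 0.13, adjusted p 0.998).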

How the data were processed

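Raw read counts per gene, deposited by the authors for 13 libraries, came from non-stranded poly-A libraries of whole aorta RNA, per the labels' protocols. Reads were processed with STAR 2.6.1d and featureCounts of Subread 1.6.3 on build GRCm39, per the submitters' processing notes. The counts were used as deposited. Genes were filtered with filterByExpr and scaled by TMM in edgeR 4.0.16 (R 4.3.3), and CPM values use the scaled library size. The main test was edgeR's quasi-likelihood test, two-sided, with 1 mean per group, and an additive model for each drug given or not. Benjamini-Hochberg adjustment ran over all 18055 genes. SE is the log2 fold change divided by the square root of F. Log2 CPM for correlations used a prior count of 2. DESeq2 1.42.0, limma 3.58.1 and other alternatives were run beside it. Scripts were tested on simulated counts. The 10 genes and all lists were chosen with earlier results of these data known; likeness genes were the 3 with the highest r (1 is not reported here), and of other pathway lists the gene with the smallest p in each direction of each drug term could be named. Samples were grouped by their labels. No libraries were duplicates (smallest chi-squared 17.15 per degree of freedom). Figures used matplotlib 3.10.9.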

Additional observations from a re-analysis of the deposited data

Results flagged for a closer look

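Mmp9 stood at 4.50 CPM in Western diet 2, far from the other 4 libraries of that group, which lay between 2.11 and 2.78 CPM; the gap was 0.722 of the whole range of the group. The values of all 10 genes in the Western diet group were examined in this way, and chance sets apart about 1 in 20. Western diet 2 also had the second-lowest TMM factor, 0.639, and 49.24 CPM of neutrophil markers against 2.94 to 18.19 CPM in the other Western diet libraries. Scaled by total counts alone, without the TMM factor, Mmp9 was at 2.88 CPM in Western diet 2. The other libraries of the group then ran from 1.95 CPM (Western diet 5) to 3.42 CPM (Western diet 4), so Western diet 2 stood apart only after TMM scaling. The part of the neutrophil markers in the Mmp9 value was not tested.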

How the results depend on the processing

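Under 24 alternatives (13 that leave out 1 library each and 11 others) no gene of the 10 passed an adjusted p of 0.05; the smallest was 0.19, for Timp3 with atorvastatin without Western diet 3. Of 1620 values recomputed, 1511 kept their direction and side of the threshold and 109 changed sign. The number of all genes past the threshold, 0 in each comparison with edgeR, was 13 for auranofin, 2 for atorvastatin and 9 for the combination without the low-count filter. With DESeq2 it was 2 for auranofin, 4 for the combination, 5 for auranofin against atorvastatin and 11 for the interaction. With 1 library left out it ran from 0 to 10 for the combination, highest without combination 1, and from 0 to 2 for the interaction. The cause was not tested. In samples that share a replicate number, deviations from the group means correlated at -0.309 to 0.433 over 15 pairs, and 5 pairs were above 0.1. The median was 0.056, against -0.042 for pairs with different numbers. The deviations of the 2 combination libraries mirror each other by construction, so these values cannot tell whether the numbers pair the samples. With the replicate number as block, no gene passed.

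The values that changed sign follow, and the cause was not tested. With the adipocyte score as covariate, log2 fold changes were 0.02 for Mmp2 with auranofin, -0.022 for Mmp9 with the combination, 0.056 for Mmp2 with auranofin given or not, 0.103 for Timp1 with atorvastatin given or not, and 0.012 for Mmp19 and -0.014 for Timp2 in the interaction. With the macrophage score they were 0.328 for Timp1 with atorvastatin given or not, 0.0098 for Timp4 with auranofin given or not and -0.00023 for Mmp2 in the interaction. Without a low-count filter Timp1 had 0.0042 for atorvastatin given or not. With the replicate block, Timp4 had 0.021 for auranofin and 0.176 for auranofin given or not, Mmp13 had 0.247 for auranofin against atorvastatin and Mmp3 had -0.00088 for the combination. Differences of mean log2 CPM in the exact permutation test were 0.036 for Mmp2 with auranofin, 0.269 for Timp1 with the combination and 0.205 for Mmp13 in auranofin against atorvastatin.

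Leaving out the 3 libraries with the lowest TMM factors was chosen after seeing the data. It gave -0.113 for Mmp13, -0.038 for Mmp19 and 0.921 for Timp4 with auranofin, 0.127 for Mmp9 and -0.101 for Mmp19 with atorvastatin, and 0.169 for Timp1 and 0.283 for Timp4 with the combination. It gave -0.103 for Mmp13 and 0.667 for Timp4 with auranofin given or not, 0.343 for Timp1 with atorvastatin given or not, and 0.02 for Mmp13, 0.345 for Mmp19 and -0.521 for Timp4 in the interaction. With limma, Timp4 had 0.942 for auranofin, 0.292 for the combination, 0.623 for auranofin given or not and -0.529 in the interaction; Mmp9 had 0.071 for atorvastatin and 0.04 for atorvastatin given or not; Timp1 had 0.036 for the combination and 0.404 for atorvastatin given or not; Timp2 had -0.041 for the combination and Mmp19 -0.129 for auranofin against atorvastatin.

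With 1 library left out, the ranges that crossed 0 were, for auranofin, -0.143 to 0.561 for Mmp13, -0.292 to 0.124 for Mmp2 and -0.764 to 0.0026 for Timp4. For atorvastatin they were -0.794 to 0.792 for Mmp13, -0.249 to 0.504 for Mmp19 and -0.409 to 0.112 for Mmp9. For the combination they were -0.016 to 0.69 for Mmp13, -0.064 to 0.812 for Mmp19, -0.067 to 0.242 for Mmp3, -0.401 to 0.553 for Mmp9, -0.81 to 0.368 for Timp1 and -0.062 to 0.24 for Timp2. For auranofin against atorvastatin Mmp13 ran from -0.628 to 0.952. For auranofin given or not they were -0.128 to 0.481 for Mmp13, -0.134 to 0.109 for Mmp2, -0.023 to 0.168 for Mmp3, -0.366 to 0.09 for Timp3 and -0.261 to 0.166 for Timp4. For atorvastatin given or not they were -0.348 to 0.522 for Mmp13, -0.144 to 0.29 for Mmp19, -0.206 to 0.023 for Mmp3 and -0.334 to 0.401 for Timp1. For the interaction they were -0.664 to 0.923 for Mmp13, -0.573 to 0.256 for Mmp19, -0.037 to 0.379 for Mmp2, -0.829 to 0.153 for Mmp9 and -0.077 to 0.235 for Timp2. The low counts of Mmp9, 45 to 99 per library, limit its precision.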

Other observations

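Mmp8, the neutrophil collagenase, was the least abundant of the tested collagenases, with 1.29, 3.29 and 2.16 CPM with auranofin, 0.908, 2.24 and 0.714 CPM with atorvastatin, 1.44 and 4.02 CPM with the combination, and 3.11, 2.28, 0.245, 3.29 and 0.406 CPM on the Western diet alone. These values rest on 6 to 90 counts per library, and the 2 lowest were in Western diet 3 and Western diet 5, as for Mmp12 and Mmp13. The log2 fold change of Mmp8 was 0.252 (SE 0.74, adjusted p 0.924 by edgeR) for auranofin, -0.538 (SE 0.761, adjusted p 0.697) for atorvastatin and 0.534 (SE 0.827, adjusted p 0.997) for the combination. Mmp23 and Mmp11, chosen after their values were seen as the further MMP genes with the smallest p for auranofin, had -0.85 (SE 0.296, p 0.0133, adjusted p 0.671 by edgeR) and -0.65 (SE 0.282, p 0.0386, adjusted p 0.671). In the same order they had -0.68 and -0.318 for atorvastatin and -0.44 and -0.124 for the combination. The highest values of Mmp23 were in Western diet 2 (135.7 CPM) and Western diet 5 (123.8 CPM), both with low TMM factors.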
